A study of Canis lupus familiaris with 12 samples.

Results

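Liver gene expression of young dogs was compared between 2 diets, one based on animal protein (APB) and one based on plant protein (PPB), across genes and metabolic pathways. The comparison used 6 of the 12 arrays of the series, 1 array per dog and 3 dogs on each diet, taken by the age and diet in their titles. All 6 dogs were female beagles that entered at a mean age of 8 wk, ate their diet freely for 12 months while they grew, and were 1 yr old when liver was sampled after a 12 hr fast. The APB diet was built on rice, poultry by-product meal and poultry fat, with 28% protein, 23% fat, 5% fiber and 5.38 kcal/g. The PPB diet was built on soybean meal, corn and wheat middlings together with some meat and bone meal, with 26% protein, 11% fat, 15% fiber and 4.75 kcal/g. The diets therefore differed in fat, fiber and energy density as well as in the source of protein. By the paper's account, young dogs fed APB also took in less food, energy, protein and fiber per day, and more fat. These differences cannot be told apart. The 6 senior dogs, 12 yr old and on restricted amounts of the same diets, entered the estimate of the spread and the test of whether the diet difference depended on age.

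In the fasted state the liver makes glucose from amino acids and glycerol, oxidizes fatty acids in mitochondria and peroxisomes, and turns the nitrogen of broken-down amino acids into urea. Synthesis of cholesterol and fatty acids is higher after feeding and is known to respond to the fat and carbohydrate of the diet. Liver tissue holds mostly hepatocytes, with resident macrophages (Kupffer cells), endothelial cells and fat-storing stellate cells between them. In whole tissue, fewer cells of a type and less RNA per cell cannot be told apart.

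RNA was measured on a canine expression array that reads most genes near their 3' end. Values are log2 expression values per probe set, a group of short probes that read 1 transcript, so a difference of 1 is a 2-fold difference. Of 23836 probe sets without controls, 10549 had exactly 1 gene symbol and 13149 had none. Expression of ALB, the main plasma protein made by hepatocytes, lay between 15.11 and 15.23 in all 6 young dogs. Of 9 hepatocyte markers with a probe set, 7 reached a log2 value of 4 in APB dogs 1 and 2 and 8 did so in each other young dog. None of the 3 neutrophil markers with a probe set reached 4 in any young dog.

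Arrays of the young dogs fed APB were not alike. The array carries probe sets for the 3' and the 5' end of 4 dog transcripts, and the gap between them measures how much of the labelled RNA reached the 5' end. The mean gap was 9.21 and 8.80 in APB dogs 1 and 2 and 4.37 in APB dog 3. The PPB dogs had gaps of 4.93, 3.37 and 4.87, so APB dog 3 lay among the PPB dogs and APB dogs 1 and 2 lay far above them. The same held for 4 bacterial transcripts added with a poly-A tail, with mean gaps of 5.59, 5.55 and 3.11 in the APB dogs and 2.98, 2.20 and 3.43 in the PPB dogs. Hybridization controls, which are added already labelled, had mean gaps between 0.22 and 0.37 in the 6 dogs. Over the 8144 probe sets with a mean of at least 4, APB dogs 1 and 2 correlated at 0.961 with each other and at 0.894 and 0.887 with APB dog 3, while the PPB dogs correlated at 0.946 to 0.966.

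**Figure D1:**
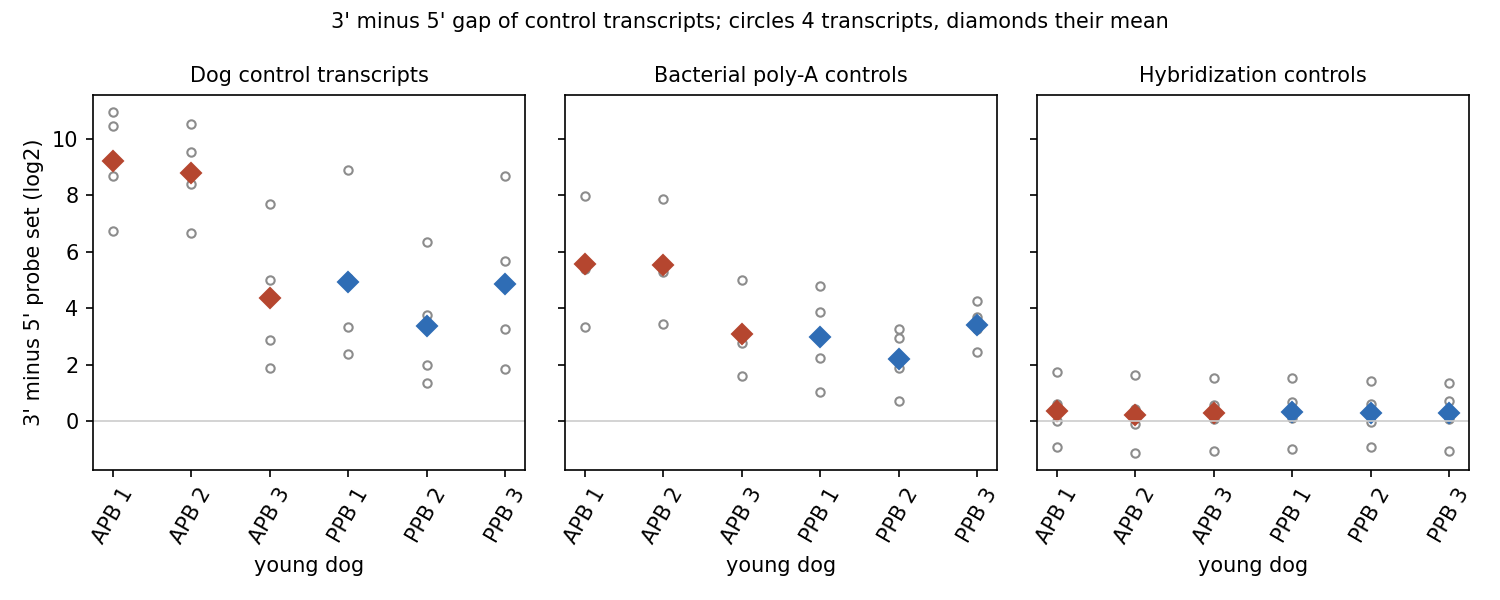
Gap between the 3' and the 5' probe set (log2, vertical axis) of control transcripts in each young dog (horizontal axis), red for APB and blue for PPB; circles are 4 single transcripts and diamonds their mean. The dog transcripts and the bacterial poly-A controls had wide gaps in APB dogs 1 and 2 (means 9.21 and 8.80, and 5.59 and 5.55) and the hybridization controls did not.

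Differences over all 6 young dogs were therefore set beside those in APB dog 3 alone against the mean of the PPB dogs, and, for the gene lists and the genes that remained at a matched gap, beside a fit with the gap as a covariate. Both APB dogs 1 and 2 were more than 2-fold below APB dog 3 on 1112 probe sets (4.67%) and more than 2-fold above it on 254 (1.07%). Those differences lie within 1 diet group. Their part in each diet difference was not tested.

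No probe set passed the thresholds of the study, which ask for an adjusted p under 0.1 together with a difference above 2-fold. With limma and Benjamini-Hochberg adjustment over 23836 probe sets, 0 were called (0.0%) and the smallest adjusted p was 0.153, against 0.395 with the gap as a covariate. At an unadjusted p under 0.05 there were 1617 probe sets (6.78%), of which 775 (3.25%) were higher with APB and 842 (3.53%) were lower. More than 2-fold differences were unequal in direction, with 169 probe sets higher (0.709%) and 823 lower (3.45%). In APB dog 3 alone the split turned, with 223 probe sets more than 2-fold above the PPB mean (0.936%) and 142 below (0.596%). With the gap as a covariate, 148 were higher (0.621%) and 259 lower (1.09%). The number called depended on single dogs: it was 805 without APB dog 3, 1 without APB dog 1, 2 without APB dog 2, and 1, 3 and 8 without PPB dogs 1, 2 and 3. Of the 805, 150 were higher and 655 lower, and on 10 and 27 of them APB dog 3 also exceeded 2-fold that way. With weights estimated for each array, 1221 were called. Without overlap between the diets were 1738 probe sets (7.29%), 1034 higher with APB (4.34%) and 704 lower (2.95%), and both more than 2-fold and without overlap were 74 higher (0.31%) and 311 lower (1.3%).

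Clearest separation was defined as more than 2-fold, every APB dog on one side of every PPB dog, and an unadjusted p under 0.005. This left 48 probe sets (0.201%), 20 higher with APB (0.0839%) and 28 lower (0.117%), with 28 of them matched to a single gene. The probe sets higher with APB had a median difference of 1.22 over all dogs, 1.01 in APB dog 3 and 1.02 with the gap as a covariate. Those lower with APB had a median of -1.50 over all dogs, -0.83 in APB dog 3 and -1.04 with the gap. In 27 of the 28 lower probe sets, both APB dogs 1 and 2 lay below APB dog 3. The number of such probe sets was 20 without APB dog 1, 20 without APB dog 2, 745 without APB dog 3 and 28 without PPB dog 1, and the part lower with APB was 17 both without senior PPB dog 1 and when its group mate dog 3 was left out. Of the 48, 18 remained more than 2-fold both in APB dog 3 and with the gap as a covariate (0.0755% of all), 9 in each direction (0.0378% each). The number of these was 30 without PPB dog 2 and 28 without PPB dog 3.

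**Figure D2:**
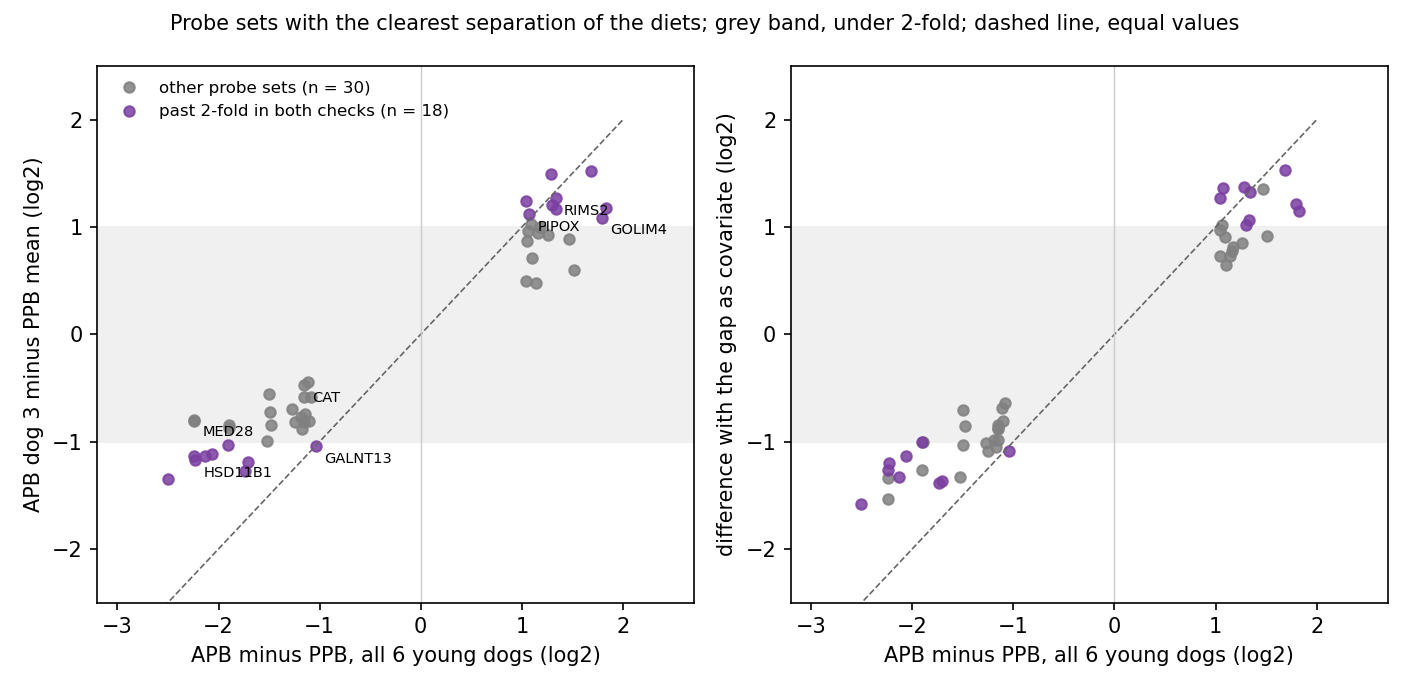
Each point is 1 of the 48 probe sets with the clearest separation; the horizontal axis gives the log2 difference over all 6 young dogs and the vertical axis the difference in APB dog 3 alone (left) or with the gap as a covariate (right). The 18 purple points lie outside the grey 2-fold band in both panels, and most points of the lower group lie closer to 0 than the dashed line of equal values.

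Named genes higher with APB at a matched gap were PIPOX, RIMS2 and GOLIM4. Absence of overlap between the diets was a condition for each gene named from the clearest probe sets. For those at a matched gap, more than 2-fold in both checks was a condition too. PIPOX, the peroxisomal enzyme that oxidizes L-pipecolic acid in lysine breakdown, had values of 7.37, 7.15 and 7.33 with APB and 6.40, 6.37 and 5.88 with PPB. The groups did not overlap, and the difference of 1.07 (SE 0.24, limma adjusted p = 0.711) was 1.12 in APB dog 3 and 1.36 with the gap as a covariate. The 3 APB dogs were close to each other, while their gaps were not.

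RIMS2, a scaffold of vesicle release sites best known from synapses, was dim, with 5.06, 4.38 and 4.62 in the APB dogs against 3.39, 2.97 and 3.71 in the PPB dogs. Its difference was 1.33 (SE 0.24, limma adjusted p = 0.464), with 1.27 in APB dog 3 and 1.07 with the gap as a covariate. GOLIM4, a membrane protein of the Golgi, had 6.29, 5.91 and 5.04 with APB and 3.55, 4.32 and 3.99 with PPB, a difference of 1.79 (SE 0.38, limma adjusted p = 0.624) that was 1.09 in APB dog 3 and 1.21 with the gap. APB dogs 1 and 2 were the highest, and its 2 other probe sets with a mean of at least 4 differed the other way, by -0.94 and -1.24.

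Further genes were higher with APB in all 3 dogs but stayed under 2-fold in APB dog 3. EPB41, a protein of the membrane skeleton, had 4.47, 4.31 and 4.13 with APB and 3.21, 3.62 and 2.93 with PPB, a difference of 1.05 (SE 0.17, limma adjusted p = 0.404). RGS10, which shortens signalling through G proteins, had 8.91, 8.25 and 8.08 against 6.85, 7.06 and 7.55. The 2 other probe sets of RGS10 with a mean of at least 4 differed by 0.81 and 0.00 over all dogs. DIP2B had 7.18, 6.88 and 6.44 against 5.59, 5.96 and 5.65. On the probe sets whose values are given, APB dog 1 was the highest and APB dog 3 the lowest of its group in each of these genes. LIFR, the receptor of leukemia inhibitory factor, had 4.97, 5.54 and 4.44 against 4.02, 4.07 and 3.74, with a difference of 0.50 in APB dog 3.

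With APB dogs 1 and 2 left out, limma called 20 probe sets, all higher in APB dog 3, on the assumption that a lone dog varies like the other groups. Of these, 18 had a mean under 4. The brightest was RDH16, a liver retinol dehydrogenase, chosen here after its values were seen. It had 12.30, 12.09 and 12.94 in the APB dogs and 11.69, 11.76 and 11.74 in the PPB dogs. Every APB dog lay above every PPB dog. The spread within PPB was 0.04 (SD, n = 3), and the APB dogs lay further apart. The difference of 0.72 (SE 0.18, limma adjusted p = 0.718) over all dogs was 1.21 in APB dog 3, a value that rests on 1 APB dog.

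**Figure D3:**
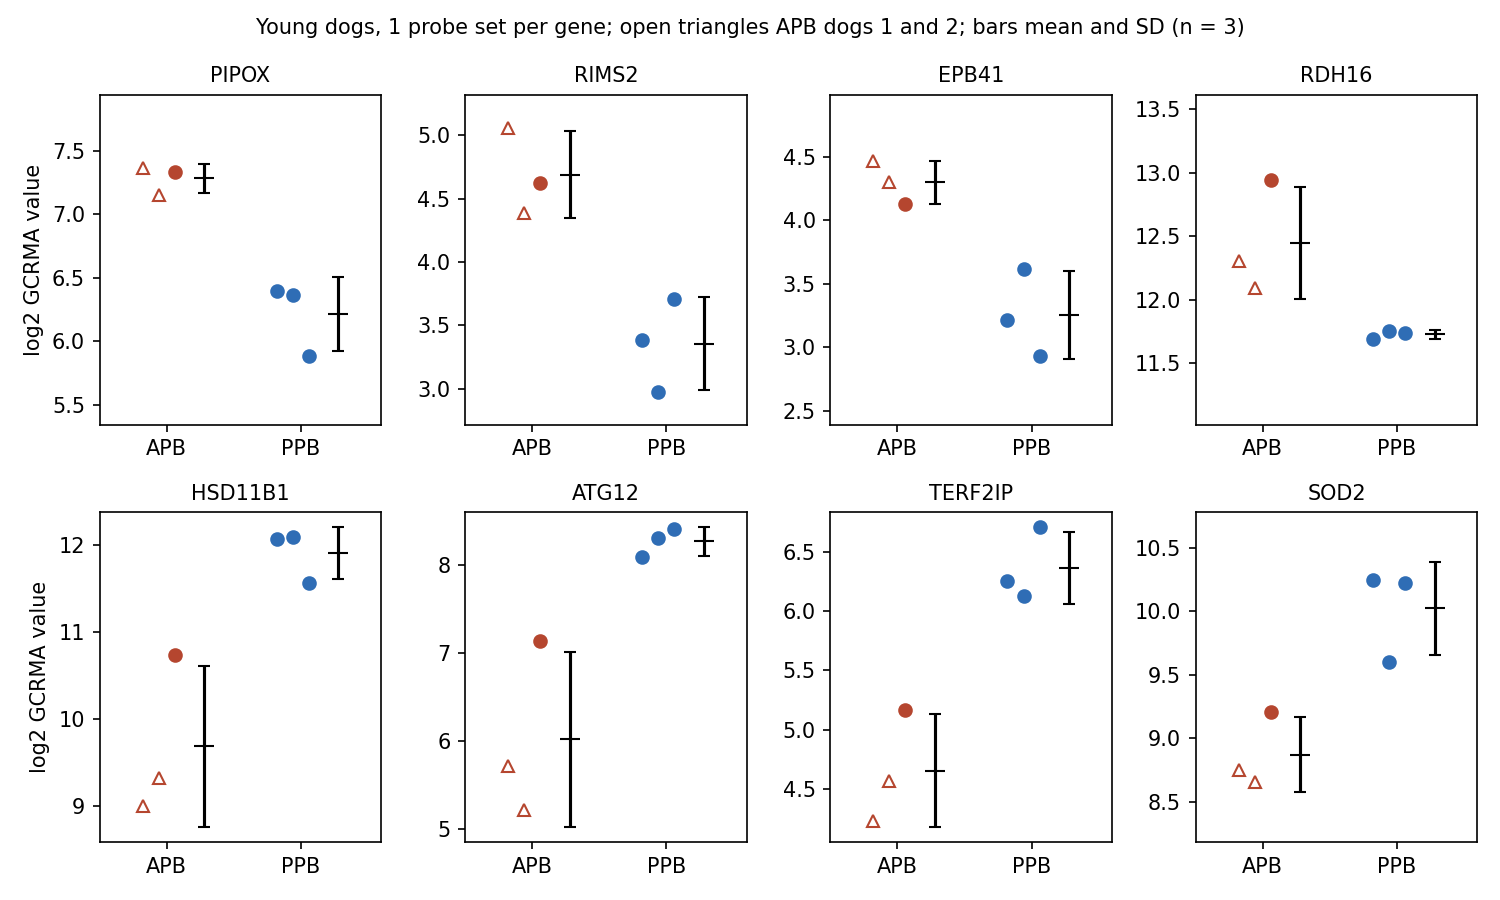
Log2 value (vertical axis, a separate range in each panel) of 8 genes in the young dogs fed APB (red) and PPB (blue); open triangles are APB dogs 1 and 2, and bars give the mean and SD of 3 dogs. The diets do not overlap in any panel, which was a condition of choice for every gene shown except RDH16. In HSD11B1 and ATG12 the triangles lie far below APB dog 3, while in PIPOX all 3 APB dogs lie together.

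Among genes lower with APB at a matched gap, HSD11B1 was the brightest. It encodes the enzyme that regenerates active cortisol from cortisone in liver. Its values were 9.0, 9.32 and 10.74 in the APB dogs and 12.08, 12.09 and 11.57 in the PPB dogs. The groups did not overlap, and APB dog 3 lay between the other APB dogs and the PPB dogs. The difference was -2.23 (SE 0.56, limma adjusted p = 0.718) over all dogs. It was smaller at a matched gap, at -1.17 in APB dog 3 and -1.20 with the gap as a covariate. HSD11B1 had 1 probe set.

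ATG12, a ubiquitin-like protein needed for autophagosome formation, had 5.71, 5.22 and 7.13 with APB and 8.09, 8.30 and 8.40 with PPB. The difference was -2.24 (SE 0.56), with -1.13 in APB dog 3 and -1.26 with the gap, but 2 other bright probe sets of the gene differed by 0.15 and -0.02. TERF2IP, a partner of the telomere protein TRF2, had 4.23, 4.57 and 5.17 against 6.26, 6.13 and 6.71, a difference of -1.71 (SE 0.31, limma adjusted p = 0.464). It was -1.19 in APB dog 3 and -1.37 with the gap, and its other bright probe set differed by 0.50.

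The remaining matched genes were dimmer. MET, the receptor of hepatocyte growth factor, had 2.73, 2.65 and 3.38 with APB and 5.40, 3.93 and 4.65 with PPB. RAB18, a small GTPase found on lipid droplets, had 3.49, 3.02 and 4.74 against 6.74, 5.54 and 5.36, and RBBP4, a histone-binding chromatin protein, had 2.89, 2.47 and 3.99 against 4.56, 5.34 and 5.16. In APB dog 3 the 3 genes differed by -1.27, -1.14 and -1.03, and with the gap by -1.38, -1.33 and -1.0. The brighter probe set of RAB18 differed by 0.06 over all dogs. GALNT13, an enzyme that starts O-linked sugar chains, had the smallest adjusted p of any named gene (limma adjusted p = 0.153) at a difference of -1.04 (SE 0.12), which was -1.05 in APB dog 3 and -1.08 with the gap. Its APB values of 2.39, 2.37 and 2.37 lay near the lower end of the scale, against 3.71, 3.34 and 3.19 with PPB. The brighter probe set of GALNT13 differed by -0.36 over all dogs, and the diets overlapped on it.

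Further genes were lower with APB but under 2-fold in APB dog 3. SOD2, the mitochondrial superoxide dismutase, had 8.75, 8.66 and 9.21 with APB and 10.25, 9.60 and 10.22 with PPB, a difference of -1.15 (SE 0.30, limma adjusted p = 0.718) that was -0.82 in APB dog 3. The groups did not overlap, but a further bright probe set of SOD2 differed by 0.27. CAT, the peroxisomal catalase, had 5.74, 6.11 and 6.94 against 7.48, 7.19 and 7.58 on its clearest probe set. Its other bright probe sets differed by -2.45, -0.65 and 0.15, and the brightest of them gave 0.15.

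BCKDHB, a subunit of the branched-chain keto acid dehydrogenase, had 4.44, 4.98 and 6.25 against 7.10, 7.10 and 7.16, and its brighter probe set differed by 0.21. ATP5F1C, a subunit of ATP synthase, had 6.51, 6.70 and 8.76 against 9.67, 9.20 and 9.83, while 3 other bright probe sets differed by 0.19, -0.15 and 0.21. PDHX, the part of the pyruvate dehydrogenase complex that binds its E3 enzyme, had 2.68, 2.47 and 3.22 against 4.19, 3.78 and 4.15 on its single probe set. On the probe sets whose values are given, APB dog 3 was the highest APB dog in all 3 genes. The same order held for MED28 (a subunit of the Mediator complex), CAPRIN1 (an RNA-binding protein) and ENPP2 (autotaxin), each on its clearest probe set. It also held for SYPL1 (a vesicle membrane protein) and HBP1 (a transcriptional repressor). Differences of these genes ran from -1.11 (HBP1) to -2.24 (MED28) over all dogs and from -0.44 (HBP1) to -0.89 (SYPL1) in APB dog 3. Brighter probe sets of MED28, ENPP2 and SYPL1 differed by -0.07, -0.15 and -0.92 over all dogs. On those of MED28 and ENPP2, APB dog 3 was the lowest APB dog. Other bright probe sets of CAPRIN1 differed by -2.06 and 0.24.

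The study listed 33 named genes for this comparison at its thresholds, chosen on these same dogs, so their direction is no independent evidence. A probe set was found for all 7 that it gives as higher with APB and for 25 of the 26 that it gives as lower. UGT2A1 was not matched to a probe set here. On the probe set of smallest p, all 7 and all 25 separated the diets without overlap, which fixes the direction in APB dog 3. More than 2-fold in APB dog 3 were 3 of the 7 and 10 of the 25. A second bright probe set existed for 2 of the 7 and 16 of the 25, and it exceeded 2-fold that way in 0 and 3 of them. YWHAE, an adaptor protein, had -4.02 on 1 probe set and 1.01 on another. ASAH1, the lysosomal acid ceramidase, had -3.41, -2.79, -2.13, -0.48 and 0.07 on its 5 probe sets.

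Disagreement between probe sets was not limited to those genes. Of 882 genes with at least 2 probe sets of mean 4 or more, 325 had a probe set more than 2-fold lower with APB and 24 had all of them lower by that much. Both a more than 2-fold lower probe set and one that was not lower were present in 186. In the other direction, 29 genes had a probe set more than 2-fold higher and 1 had all. GAPDH, the glycolytic enzyme that is also a control transcript of the array, had 6.29 and 7.18 in APB dogs 1 and 2 on a probe set that read 13.03 in APB dog 3 and 12.53 to 13.13 in the PPB dogs.

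For pathways, 1 probe set was used per gene, that of highest mean, in 3819 genes with a mean of at least 4. Over these genes the median difference was 0.07, or -0.01 in APB dog 3 and -0.04 with the gap as a covariate, with 55.5% higher with APB and 44.5% lower. Without overlap were 5.42% higher and 4.71% lower, more than 2-fold were 1.26% higher and 7.23% lower (1.65% and 1.02% in APB dog 3), and an unadjusted p under 0.05 was reached by 3.53% higher and 6.57% lower. None of the 3819 genes was called (0.0%), so no list held a called gene. The mean difference over all genes was -0.06, opposite in sign to the median, and the same held for gluconeogenesis and glycogen (-0.48), oxidative phosphorylation (-0.10), phase I enzymes (-0.38) and antioxidant genes (-0.09).

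Urea cycle and ammonia genes were lower with APB in 8 of 8 measured, with a median of -0.81 that was -0.18 in APB dog 3 and -0.17 with the gap as a covariate. CPS1, which fixes ammonia in the first step of the cycle, had 11.44, 11.01 and 12.52 with APB and 13.34, 13.13 and 12.93 with PPB. The diets did not overlap, and the difference of -1.48 (SE 0.44, limma adjusted p = 0.718) was -0.61 in APB dog 3 and -0.77 with the gap. OTC, the next enzyme, behaved differently, since its values of 10.17, 10.45 and 10.35 were alike in the 3 APB dogs, below 12.01, 10.90 and 10.74 with PPB. Its difference was -0.90 (SE 0.49) over all dogs, -0.87 in APB dog 3 and -0.84 with the gap as a covariate. ASS1 and ASL, which build and split argininosuccinate, had differences of -0.72 and -1.05 that shrank to -0.03 and -0.23 in APB dog 3. The mean level of the list was 11.77 and 11.74 in APB dogs 1 and 2, 12.44 in APB dog 3 and 12.54 to 12.80 in the PPB dogs.

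Of 11 genes of branched-chain amino acid breakdown, 5 were higher and 6 lower over all dogs, with a median of -0.11. At a matched gap 9 of the 11 were lower, with medians of -0.35 in APB dog 3 and -0.39 with the gap as a covariate. MCCC2, a subunit of the carboxylase of leucine breakdown, was higher with APB at 6.25, 5.76 and 5.08 against 3.99, 4.48 and 5.08, where the lowest APB dog and the highest PPB dog nearly met. PCCB, a subunit of propionyl-CoA carboxylase, was lower by 0.34 in all 3 APB dogs (8.34, 8.60 and 8.46 against 8.85, 8.90 and 8.67), with -0.35 in APB dog 3. IVD, which oxidizes isovaleryl-CoA, had 2.61 and 3.80 in APB dogs 1 and 2 and 7.69 in APB dog 3, within the PPB range of 7.43 to 9.0. Of 20 genes of other amino acid breakdown, 13 were lower over all dogs (median -0.20), 17 in APB dog 3 (median -0.25) and 13 with the gap as a covariate (median -0.14).

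In serine synthesis, PHGDH, the first enzyme of the pathway, had 7.86, 6.71 and 7.19 with APB and 5.56, 6.58 and 6.53 with PPB. The groups did not overlap, and the difference of 1.03 (SE 0.57) was 0.97 in APB dog 3 and 1.52 with the gap as a covariate. PSAT1, the second enzyme, had 4.38, 4.68 and 4.42 against 2.23, 2.64 and 4.44, so PPB dog 3 was at the level of the APB dogs. Over the 9 genes of the amino acid response and serine list, 5 were higher over all dogs (median 0.17), 7 in APB dog 3 (median 0.15) and 4 with the gap as a covariate (median -0.02).

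**Figure D4:**
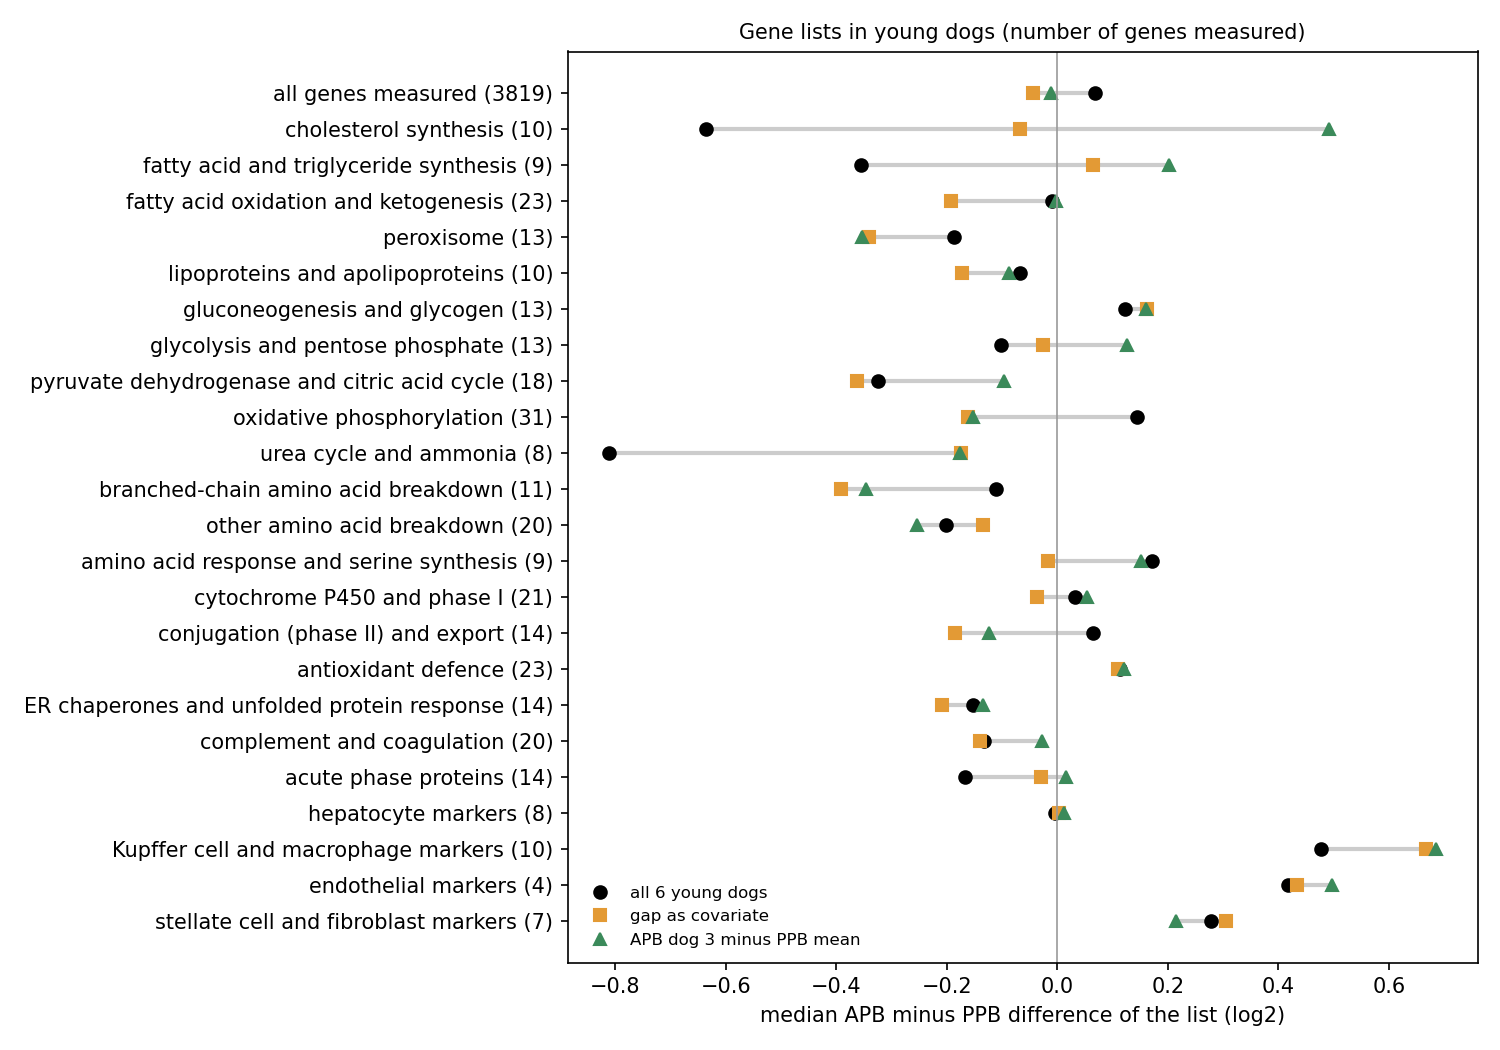
Median log2 difference of the genes of each list, APB minus PPB (horizontal axis), with the number of genes measured in brackets; black circles use all 6 young dogs, orange squares the gap as a covariate and green triangles APB dog 3 alone. Urea cycle genes move from -0.81 to -0.17 and -0.18, cholesterol synthesis from -0.64 to -0.07 and 0.49, and Kupffer cell markers stay between 0.48 and 0.69.

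Cholesterol synthesis was the list whose sign depended most on the dogs used. Of 10 genes, 7 were lower with APB over all dogs with a median of -0.64, while in APB dog 3 alone 8 were higher with a median of 0.49. With the gap as a covariate 6 were lower and the median was -0.07. FDPS, which makes farnesyl diphosphate, had 6.12, 4.31 and 10.93 with APB and 12.03, 11.47 and 11.08 with PPB. The diets did not overlap, but APB dog 3 was close to the lowest PPB dog. FDFT1, the squalene synthase, had 7.91, 6.79 and 11.07 against 10.53, 9.63 and 9.67, so APB dog 3 was the highest of all young dogs. PMVK (phosphomevalonate kinase) and NSDHL, a later sterol enzyme, had differences of -1.65 and -1.04 over all dogs and 0.44 and 0.44 in APB dog 3.

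Fatty acid synthesis followed the same order, with a median of -0.36 in 9 genes over all dogs, 0.20 in APB dog 3 and 0.06 with the gap as a covariate. ACSS2, which makes acetyl-CoA from acetate, was 1 of 3 genes of the list that were lower in APB dog 3, 2 of them more than 2-fold. It had 5.07, 3.77 and 8.46 with APB and 9.90, 10.24 and 8.96 with PPB, a difference of -3.93 (SE 1.37) that was -1.24 in APB dog 3. FADS1, a fatty acid desaturase, had 12.12, 10.02 and 11.44 against 12.62, 12.00 and 12.37, and the groups overlapped. Its difference was -1.14 over all dogs, -0.89 in APB dog 3 and -1.44 with the gap as a covariate.

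Fatty acid oxidation and ketogenesis, with 23 genes, was split at 11 higher and 12 lower over all dogs (median -0.01) and in APB dog 3 (median -0.00). With the gap as a covariate, 4 were higher and 19 lower, with a median of -0.19. CD36, a fatty acid receptor and transporter, had 2.75, 2.72 and 6.79 with APB and 8.94, 7.61 and 7.62 with PPB. It did not overlap between the diets and was -1.27 in APB dog 3. PPARA, the nuclear receptor that drives fasting fat oxidation, had 8.06, 8.33 and 7.86 against 6.59, 7.42 and 7.82. The groups just missed each other, and the difference was 0.81 (SE 0.42) over all dogs and 0.59 in APB dog 3. ECHS1, the short-chain enoyl-CoA hydratase, had 9.77 and 9.35 in APB dogs 1 and 2, while 12.18 in APB dog 3 lay within the PPB range.

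Peroxisomal genes were lower in 8 of 13, with medians of -0.19 over all dogs, -0.35 in APB dog 3 and -0.34 with the gap, against which PIPOX stood out on the higher side. DAO, the D-amino acid oxidase, had 5.09, 5.39 and 6.18 with APB and 6.31, 6.72 and 6.91 with PPB. PEX7, the import receptor for a class of peroxisomal enzymes, had 6.88, 7.23 and 7.20 against 8.40, 7.39 and 8.10. Neither overlapped between the diets, and in APB dog 3 they differed by -0.46 and -0.76. ABCD3, a transporter of the peroxisomal membrane, had 5.32, 5.18 and 6.42 against 8.33, 6.41 and 6.75, so that APB dog 3 and PPB dog 2 were level.

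Lipoprotein genes were close to 0, with 4 of 10 higher and medians of -0.07 over all dogs, -0.09 in APB dog 3 and -0.17 with the gap as a covariate. MTTP, which loads lipid onto apolipoprotein B, had 6.39, 6.58 and 7.68 with APB and 8.38, 7.64 and 7.95 with PPB, and APB dog 3 lay within the PPB range. LCAT, which esterifies plasma cholesterol, had a difference of -0.64 over all dogs and -0.24 in APB dog 3. APOM, an apolipoprotein of high-density lipoprotein, had 13.45, 13.42 and 12.87 against 12.81, 12.84 and 12.62, with 0.12 in APB dog 3.

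In carbohydrate metabolism, 8 of 13 genes of gluconeogenesis and glycogen were higher with a median of 0.12, which was 0.16 both in APB dog 3 and with the gap as a covariate. Of 13 genes of glycolysis and the pentose phosphate pathway, 9 were lower over all dogs (median -0.10), 6 in APB dog 3 (median 0.13) and 7 with the gap (median -0.03). PPP1R3C, which directs protein phosphatase to glycogen, had 1.57, 1.55 and 5.71 with APB and 7.64, 6.50 and 7.24 with PPB. The diets did not overlap, and a difference of -4.18 (SE 1.21) was -1.41 in APB dog 3. PFKP, the platelet form of phosphofructokinase, had 4.05, 5.30 and 6.04 against 4.55, 4.56 and 2.97, so that APB dogs 2 and 3 lay above every PPB dog and APB dog 1 lay among them. PGM1, the phosphoglucomutase, had 13.16 and 12.89 in APB dogs 1 and 2, while 12.26 in APB dog 3 lay within the PPB range of 12.18 to 12.32.

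Citric acid cycle genes were lower in 15 of 18, with a median of -0.32 that was -0.10 in APB dog 3 and -0.36 with the gap as a covariate. SDHC, a membrane subunit of succinate dehydrogenase, had 11.26, 11.02 and 11.19 with APB and 11.46, 11.51 and 11.50 with PPB. The difference was small, -0.33 (SE 0.11, limma adjusted p = 0.718), but the groups did not overlap and APB dog 3 gave -0.30. IDH1, the cytosolic isocitrate dehydrogenase, had 4.85 and 4.41 in APB dogs 1 and 2 and 9.55 in APB dog 3, level with the PPB range of 9.47 to 9.81. IDH3A, a subunit of the mitochondrial isocitrate dehydrogenase, was higher at 8.01, 7.76 and 7.37 against 6.50, 7.22 and 7.16.

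For oxidative phosphorylation, 20 of 31 genes were higher over all dogs (median 0.14) and 25 of 31 lower in APB dog 3 (median -0.15), with 23 of 31 lower when the gap was a covariate (median -0.16). NDUFC2, a subunit of complex I, had 7.33, 7.44 and 7.72 with APB and 7.90, 8.15 and 8.06 with PPB, with -0.54 over all dogs and -0.32 in APB dog 3. NDUFA9, also of complex I, had 3.02, 4.32 and 8.01 against 8.59, 8.93 and 8.55. Neither gene overlapped between the diets.

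Of 21 phase I detoxifying genes 12 were higher (median 0.03), with medians of 0.05 in APB dog 3 and -0.04 with the gap as a covariate. Of 14 conjugation and export genes 9 were higher over all dogs (median 0.06), while 9 were lower in APB dog 3 (median -0.12) and 11 with the gap (median -0.19). ADH4, an alcohol dehydrogenase that also oxidizes retinol, had 6.04, 6.45 and 10.56 with APB and 12.96, 11.08 and 11.06 with PPB. It did not overlap between the diets, and its difference of -4.01 (SE 1.26) was -1.14 in APB dog 3. ALDH2, the mitochondrial aldehyde dehydrogenase, had 13.33, 13.24 and 13.02 against 12.85, 12.95 and 12.94. CES2, a carboxylesterase, had 7.78 and 8.21 in APB dogs 1 and 2, while 9.85 in APB dog 3 lay within the PPB range.

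Of 23 antioxidant genes, 12 were higher and 11 lower, with a median of 0.11 that was 0.12 in APB dog 3 and 0.11 with the gap as a covariate. PRDX1, a cytosolic peroxiredoxin, had 12.83, 12.72 and 13.34 with APB and 13.73, 13.43 and 13.49 with PPB. PRDX5, which also acts in mitochondria, had 11.81, 11.65 and 10.70 against 10.70, 10.77 and 10.10. The groups of PRDX5 met at APB dog 3, whose difference was 0.18.

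Chaperones of the endoplasmic reticulum were lower in 9 of 14, with medians of -0.15 over all dogs, -0.13 in APB dog 3 and -0.21 with the gap as a covariate. PDIA4 and PDIA3, which form disulfide bonds in secreted proteins, had 8.85, 8.89 and 11.23 against 12.39, 12.18 and 11.66, and 3.22, 3.78 and 5.59 against 7.74, 6.85 and 6.09. Both separated the diets without overlap, with -0.84 and -1.31 in APB dog 3. CANX, the lectin chaperone calnexin, was higher with APB, at 11.15, 10.78 and 10.60 against 9.98, 10.16 and 10.29. HSPA5, the main chaperone of this compartment, was dim on the probe set used, with 2.23, 1.62 and 4.30 against 4.69, 4.70 and 4.73.

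Complement and coagulation factors, which hepatocytes secrete, were lower in 16 of 20 with a median of -0.13, which was -0.03 in APB dog 3 and -0.14 with the gap as a covariate. C5, C8A and PLG (plasminogen) had the widest differences, -4.35, -3.78 and -5.35. In all 3, APB dogs 1 and 2 were far below every other young dog. PLG had 2.96, 3.15 and 10.35 with APB and 10.55, 11.38 and 10.59 with PPB, so APB dog 3 was just under the PPB dogs. In APB dog 3 the differences of C5, C8A and PLG were -0.96, -0.41 and -0.49, and that of C9, a further complement factor, was -0.89. The mean level of the list was 10.41 and 10.58 in APB dogs 1 and 2, 11.75 in APB dog 3 and 11.78 to 11.99 in the PPB dogs.

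Among markers of other cell types, Kupffer cell and macrophage markers were higher in 8 of 10, with medians of 0.48 over all dogs, 0.69 in APB dog 3 and 0.67 with the gap as a covariate. CD68, a lysosomal protein of macrophages, had 7.19, 6.74 and 7.11 with APB and 5.80, 5.41 and 6.83 with PPB. AIF1, a calcium-binding protein of macrophages, had 10.36, 9.96 and 9.91 against 9.01, 8.54 and 10.19, and CD5L, which Kupffer cells secrete, had 12.06, 11.15 and 11.43 against 10.49, 9.97 and 11.72. In each gene the APB dogs were above PPB dogs 1 and 2, but PPB dog 3 was at their level, so the groups overlapped.

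CSF1R, the receptor that keeps macrophages alive, showed the same order, at 10.64, 9.91 and 9.98 against 8.98, 9.0 and 10.52. No marker of the 10 separated the diets (0 higher and 0 lower), none reached an unadjusted p under 0.05, and the mean level of the list was 9.29, 8.86 and 9.28 with APB and 8.58, 8.04 and 9.76 with PPB. PPB dog 3 was the highest of all 6 young dogs. DLA-DRA, a class II molecule that presents antigen on macrophages, had 13.03, 12.66 and 12.39 with APB and 11.33, 11.10 and 12.63 with PPB, again with PPB dog 3 among the APB dogs.

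Stellate cell and fibroblast markers were higher in 5 of 7 (median 0.28, or 0.21 in APB dog 3 and 0.31 with the gap as a covariate), and 3 of the 7 separated the diets, against 5.42% of all genes. ACTA2, the smooth muscle actin of activated stellate cells and vessel walls, had 11.58, 11.37 and 10.54 with APB and 9.90, 10.51 and 10.03 with PPB. DCN, the matrix proteoglycan decorin, had 9.48, 9.13 and 8.52 against 8.36, 8.45 and 7.45. The diets did not overlap in either gene, and APB dog 3 was the lowest APB dog in both, with differences of 0.39 and 0.43. The mean level of the list was 9.0, 8.84 and 8.52 with APB, the order of the gaps of these dogs, and the part of the gap was not tested. PECAM1, an endothelial adhesion protein, had 12.04, 12.17 and 11.63 against 10.32, 11.33 and 11.27 without overlap, with 0.66 in APB dog 3. Of 4 endothelial markers 3 were higher (median 0.42), and ENG, a co-receptor of vessel lining cells, overlapped between the diets. The part of other cell types in the gene differences above was not tested.

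Hepatocyte markers had no common direction, with 4 of 8 higher and a median of -0.00. Their mean level leaned lower with APB all the same, at 12.67, 12.65 and 13.17 against 13.31, 13.23 and 13.08. APB dogs 1 and 2 were the lowest, and APB dog 3 lay among the PPB dogs. Of 5 T and NK cell markers, 3 were higher with a median of 0.26 over all dogs, -0.11 in APB dog 3 and 0.41 with the gap as a covariate. Cholangiocyte, B and plasma cell, and erythroid markers had 2 measured genes each, 1 higher and 1 lower, with medians of -0.01, -0.34 and -0.22.

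**Figure D5:**
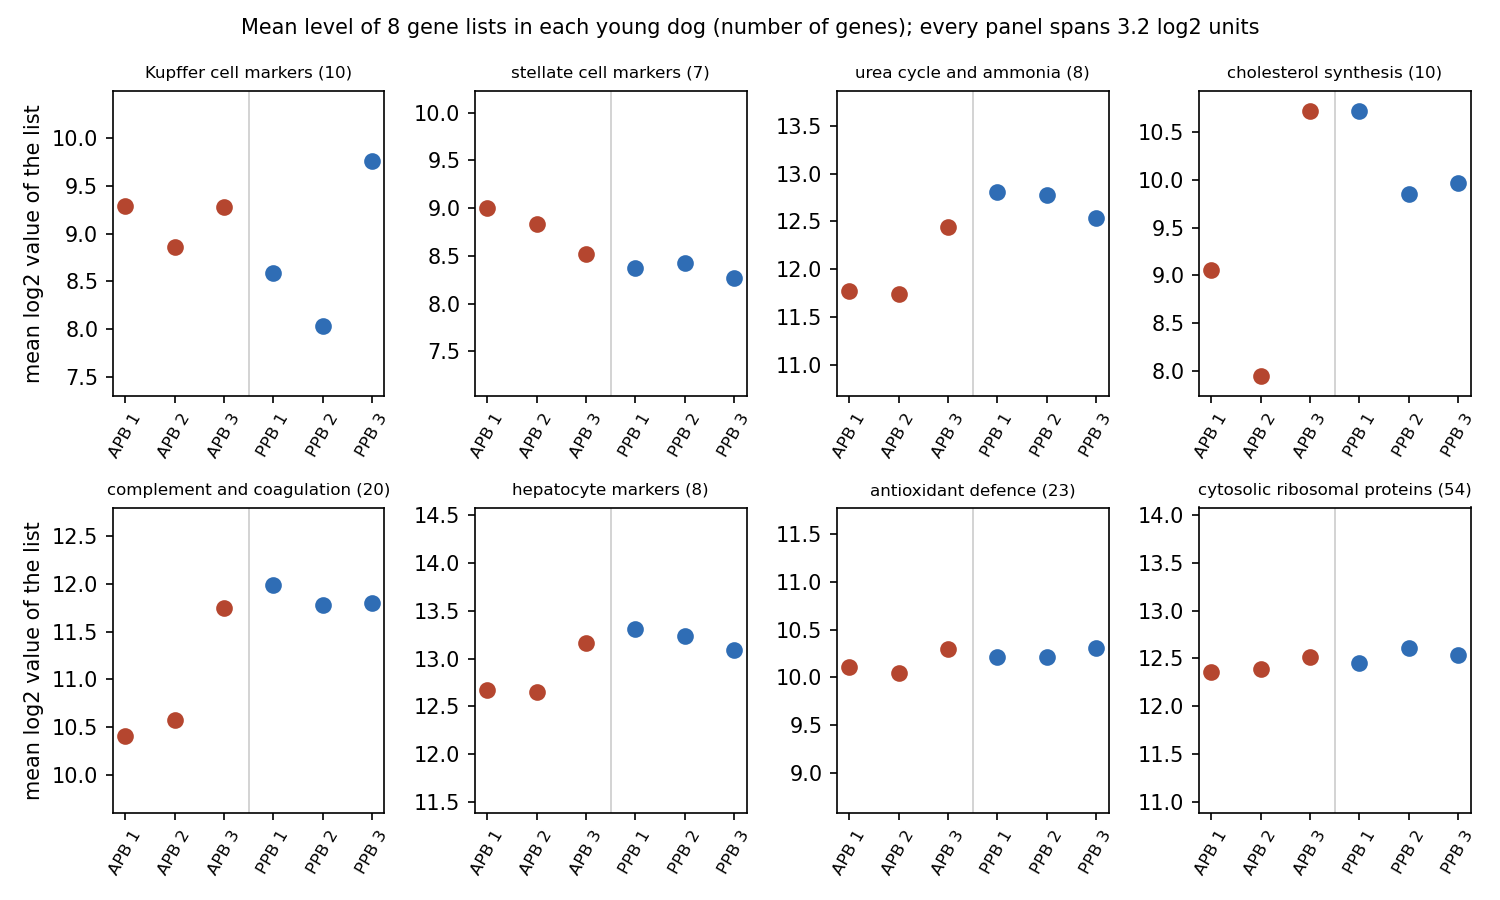
Mean log2 level (vertical axis, the same span in every panel) of the genes of 8 lists in each young dog (horizontal axis), red for APB and blue for PPB. Urea cycle, complement and cholesterol genes are lowest in APB dogs 1 and 2. APB dog 3 lies just under the PPB dogs for urea cycle (12.44) and complement genes (11.75) and within their range for cholesterol genes (10.72). For Kupffer cell markers PPB dogs 1 and 2 are lowest and PPB dog 3 is highest (9.76).

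Whether the diet difference depended on age was tested as the young difference minus the senior difference. With limma, 0 of 23836 probe sets were called (0.0%), the smallest adjusted p was 0.839, and 700 (2.94%) had an unadjusted p under 0.05. The number called was 136 without young APB dog 3, 2 without senior PPB dog 1, and 1 each when dog 1 or dog 2 of the young APB group or dog 2 of the young PPB group was left out. In senior dogs the diet contrast had 520 probe sets (2.18%) at an unadjusted p under 0.05 and 0 called. The 20 probe sets clearly higher in young dogs fed APB had a median senior difference of 0.11, with 14 of 20 higher, and the 28 clearly lower had -0.14, with 18 of 28 lower. Over all 3819 genes measured, with 1 probe set each, 2108 were higher and 1711 lower with APB in senior dogs. The 2 contrasts have no dogs in common but share the estimate of the spread. PIPOX differed by 0.42 in senior dogs, HSD11B1 by -0.32, RDH16 by 0.07 and OTC by 0.03, each under 2-fold. For HSD11B1 the senior dogs had 12.04, 10.10 and 11.70 with APB and 11.44, 11.60 and 11.76 with PPB. Senior APB dog 2, the lowest of these, also had a wide control gap of 7.03, against 4.97 and 3.53 in its group mates. The senior PPB dogs had gaps of 4.53, 2.32 and 4.12. The part of the gap in these senior differences was not tested.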

How the data were processed

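The authors deposited log2 values made with GCRMA, which corrects probe background, applies quantile normalization between arrays and summarises probes to 1 value per probe set. Its version is not given in the sources used here. No further normalization was applied, and the 77 control probe sets were left out of the tests. Gene symbols came from the platform annotation. A mean per age by diet group was fitted over 12 arrays with limma 3.58.1 in R 4.3.3 (lmFit, eBayes), with Benjamini-Hochberg adjustment over 23836 probe sets. The covariate was the mean 3' minus 5' gap of 4 dog control transcripts. With 3 dogs against 3, an exact permutation test cannot go below 0.1, so none is given. Members, gene lists and rules were chosen with earlier results of these data known. Genes named were the 12 with the largest clear difference per direction (higher group mean at least 5), those remaining at a matched gap, up to 4 members of smallest p per list, and the genes of the study's tables; RDH16, ABCF1 and HERC2 were added after their values were seen. Of the gene lists, those with few measured genes or no separation are not all described. Same-numbered dogs of the 2 young groups did not deviate together, while those of young and senior PPB did. Since the young groups are the ones compared, the number of the dog was a block only as an alternative. Alternatives were filters on dim probe sets, the prior, scaling, array weights, the gap, the block and leaving out dogs. The model was tested on simulated data. The number of arrays limits the precision, and p-values measure the spread between these dogs.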

Additional observations from a re-analysis of the deposited data

Results flagged for a closer look

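MRPS16, a protein of the mitochondrial ribosome, differed in opposite directions at the 2 ages without overlap at either. In young dogs it had 9.42, 9.15 and 8.58 with APB and 8.15, 8.29 and 8.06 with PPB, a difference of 0.88 (SE 0.21) that was 0.41 in APB dog 3 and 0.75 with the gap as a covariate. In senior dogs it had 7.99, 8.10 and 8.38 with APB and 8.50, 8.94 and 8.60 with PPB, a difference of -0.53. The young minus senior difference was 1.41, with an unadjusted limma p of 0.00108 and an adjusted p of 0.839, which did not pass.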

How the results depend on the processing

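No probe set was called for diet or for its dependence on age under either filter, the intensity trend, the robust prior, another scaling, the gap or the block, nor for diet with the 6 young arrays alone, at an adjusted p under 0.05 or without a fold minimum. With array weights 1221 were called for diet and 361 for age dependence, and the clear differences were 327 (73 higher, 254 lower), with 30 at a matched gap. Without APB dogs 1 and 2 the calls were 20 and 22, with 32 higher and 2 lower clear differences. At an unadjusted limma p under 0.005 together with a difference above 2-fold, 48 were called. These were the 48 clear differences, so the condition of no overlap removed none. The 48 clear differences became 77 (58 lower) with a mean of at least 4, 21 (6 lower, 11 at a matched gap) with young arrays only, and 13 (10 higher, 3 lower) with the gap as a covariate, and 46 were lower with an intensity trend. Leaving out 1 dog gave 0 to 805 calls for diet, 0 to 136 for age dependence, 20 to 745 clear differences, 13 to 130 higher, 3 to 615 lower and 12 to 30 at a matched gap. Same-numbered dogs of the young groups did not deviate together (correlations of -0.27, -0.25 and -0.03), but those of young and senior PPB did (0.49, 0.43 and 0.35), and the replicate block gave 84 clear differences (63 lower) and 0 calls. Of 25 genes of the clear differences or the study's tables with several probe sets, 17 had a brighter one, and on it the sign turned for 10: GOLIM4 (-1.24), RAB18 (0.057), BCKDHB (0.21), TERF2IP (0.50), CAT (0.15), ASAH1 (0.068), TARDBP (0.155), MPDZ (0.34), ABCF1 (0.39) and HERC2 (0.031). With the gap it turned for PMVK (0.12) and FDFT1 (0.15), and without APB dogs 1 and 2 for PMVK (0.44), NSDHL (0.44), FDFT1 (1.12) and GAPDH (0.13). The cause was not tested. The weights did not converge fully, APB dogs 1 and 2 are 2 of 3 dogs in their group, and the number of arrays limits every comparison.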

Other observations

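Of 54 cytosolic ribosomal proteins 30 were higher with APB (median 0.06, mean -0.11), 9 separated the diets on the lower side (4.71% of all genes measured did), and the mean level was 12.35, 12.39 and 12.52 with APB against 12.45, 12.61 and 12.53 with PPB. RPSA, a protein of the small subunit, had 7.60, 8.64 and 12.80 against 12.95, 13.37 and 12.95, and RPL17, of the large subunit, had 12.38, 12.68 and 13.61 against 14.08, 13.61 and 14.57. In both, APB dog 3 was the APB dog nearest to PPB. Mitochondrial ribosomal proteins were higher in 21 of 39 over all dogs (median 0.03) and in 14 with the gap as a covariate (median -0.14), and proteasome genes in 10 of 23 (median -0.08) and in 4 with the gap (median -0.22). PSMC3, an ATPase of the proteasome, had 11.58, 11.48 and 10.73 against 10.55, 10.58 and 10.01, while PSMC5, another ATPase, had 4.21 and 4.66 in APB dogs 1 and 2 and 8.35 in APB dog 3, among the PPB dogs.

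Autophagy and lysosome genes were higher in 18 of 24, with medians of 0.21 over all dogs, 0.15 in APB dog 3 and -0.02 with the gap as a covariate. CTSZ, a lysosomal protease, had 14.42, 14.02 and 13.82 with APB and 13.34, 13.39 and 13.63 with PPB without overlap, and 0.37 in APB dog 3. LAMP1, a lysosomal membrane protein, overlapped between the diets. Heat shock proteins were higher in 11 of 14 (median 0.11), interferon response genes in 3 of 6 (median -0.05), acute phase proteins in 4 of 14 (median -0.17, or 0.02 in APB dog 3) and genes of the IGF axis in 4 of 12 (median -0.21, or 0.29 in APB dog 3). Iron and copper genes were higher in 2 of 9 (median -0.51) over all dogs and in 7 of 9 (median 0.37) in APB dog 3.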
